A study of Homo sapiens with 32 samples.

Results

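The genes described here are 41 genes of the contractile apparatus and of muscle differentiation, chosen by name: heavy and light chains of myosin, actins, troponins and tropomyosins, Z-disc and M-band proteins, subunits of the muscle acetylcholine receptor, and proteins of calcium release, the caveola and muscle energy metabolism. Of the 41, 40 matched a row by gene symbol among the 18980 coding genes listed in every library, and MYLPF was not analysed here. Expression was measured by RNA-seq of total RNA from RH4, an established human alveolar rhabdomyosarcoma line, which is a tumour that carries a skeletal muscle programme. Treatment was with 1 of 4 compounds (JQAD, A485, dCBP, IHK-44) at a dose of 1000 nM or 100 nM, and cells were taken after 2 h or after 6 h, giving 16 treated libraries. The 4 control libraries were DMSO (the solvent) and NT, a condition the labels do not spell out, each at 2 h and 6 h.

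The series concerns CBP and p300, paralogous acetyltransferases that act as coactivators at enhancers and promoters. A485 is known as an inhibitor of their catalytic domain, and dCBP and JQAD are known as degraders. The labels do not describe IHK-44. Every condition had 1 library of this single line, so in the tests the 4 libraries that share a compound took the place of replicates, and a difference of 1 library from another has no replicate check. Nothing in the labels says that libraries came from separate cultures, so the p-values measure only the spread between these libraries. The 11 ChIP-seq samples and the 1 ChRO-seq sample of the series were not analysed here.

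In skeletal muscle, thick filaments of myosin slide along thin filaments of actin. Calcium released through RYR1 binds troponin on the thin filament, tropomyosin shifts, and the pump ATP2A1 returns the calcium to the sarcoplasmic reticulum. Sarcomere genes are switched on late in myogenesis by MYOD1 and MYOG, which bind E-boxes, together with MEF2 proteins, and embryonic isoforms are later replaced by adult ones. Alveolar rhabdomyosarcoma cells express much of this programme without completing differentiation.

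Library totals over coding genes ran from 13466631 to 16799327 expected counts. Of 7 markers of the skeletal muscle lineage, 5 had a mean of at least 1 CPM (expected counts scaled to 1 common total over coding genes) over the 4 controls, and MYF5 and MYF6 were at 0 in 17 and 18 of the 20 libraries. MYOD1 was at 508 to 677 CPM and MYOG at 264 to 300.1 CPM in the controls. Of 8 cardiac markers, 1 (NKX2-5, 37.0 to 67.3 CPM over all libraries) reached a control mean of 1 CPM, and the cardiac myosins MYH6 and MYL7 were at 0 in 19 of 20 libraries each. The summed level of 3 endothelial markers stayed between 0.397 and 1.68 CPM.

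In control cells the sarcomere programme was partial, and its members differed widely in level per unit length. FPKM, which divides by length, is used here to compare genes. The error is the SD over the 4 control libraries, which differ in time and in label (DMSO or NT). ACTC1, cardiac alpha-actin, which embryonic skeletal muscle also expresses, stood at 1213 ± 69.6 FPKM (SD, n = 4) and ranked 24th of all coding genes. CHRNA1, the alpha subunit of the acetylcholine receptor, followed at 302 ± 10.7 FPKM (SD, n = 4). TPM2 (beta-tropomyosin) was at 256 ± 5.03 FPKM and the myosin light chain MYL6B at 239 ± 7.20 FPKM (SD, n = 4 each). DES, which encodes the intermediate filament desmin, was at 197 ± 10.7 FPKM (SD, n = 4). TNNT1, slow troponin T, was at 178 ± 3.32 FPKM (SD, n = 4).

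The ranges of these 6 genes over the controls did not overlap, except that the lowest TPM2 value (248.5 FPKM) lay just under the highest MYL6B value (248.8 FPKM). Below them, TPM3 (83.8 FPKM), CAV3 (78.7 FPKM), ENO3 (75.5 FPKM) and KLHL41 (69.8 FPKM) did not differ in order beyond their spread, with KLHL41 running from 61.2 to 80.8 FPKM. At the other end, 10 of the 40 genes had a control mean under 1 CPM: ACTA1, CKM, MYH7, MYOM2, MYOM3, TCAP, TNNC1, TNNC2, TNNT3 and UNC45B. ACTA1 encodes the adult skeletal actin and CKM the muscle creatine kinase, and their control means were 0.251 and 0.267 CPM. At the depth of these libraries 3 counts correspond to 0.179 to 0.223 CPM, so changes of such genes were mostly not detectable. Of the remaining 30, 13 had a control mean of at least 100 CPM.

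**Figure D1:**
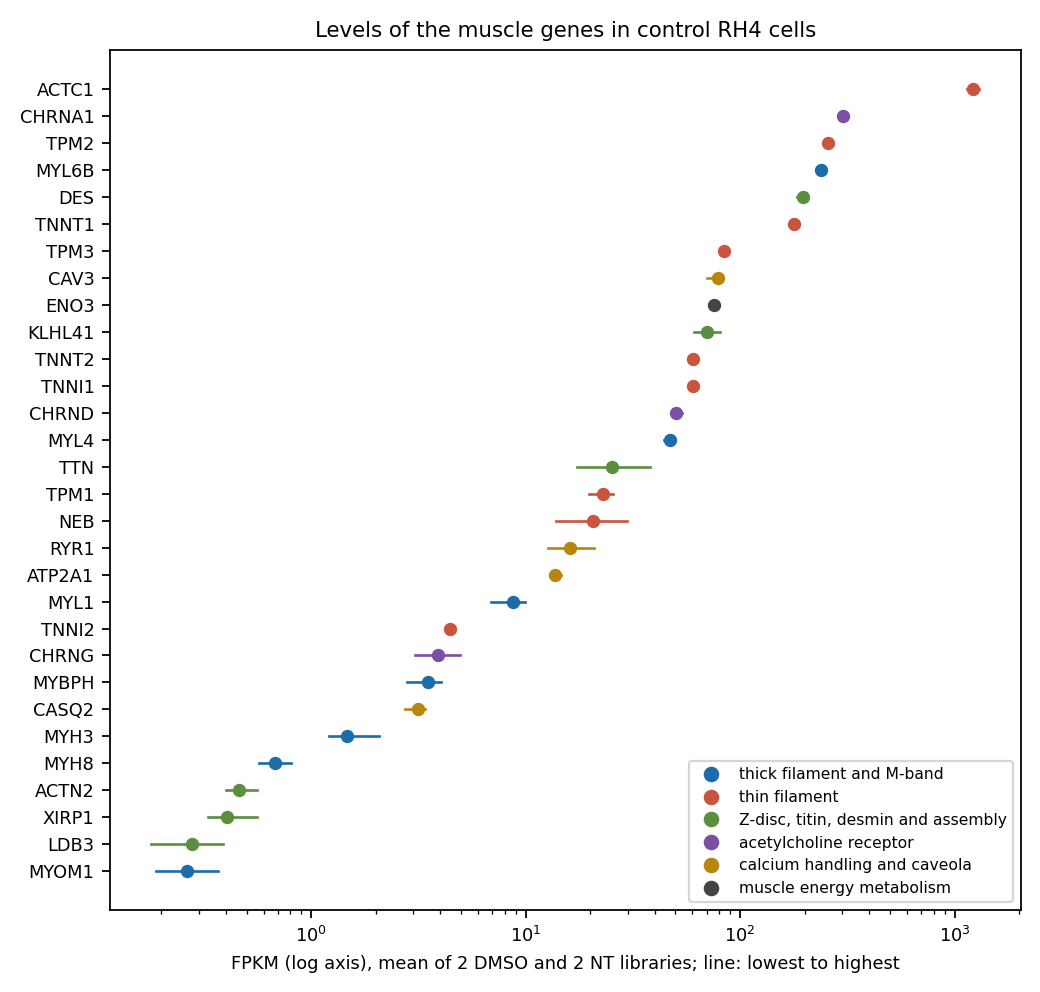
FPKM (log axis) of the 30 genes with a control mean of at least 1 CPM, as the mean over 2 DMSO and 2 NT libraries (point) and the lowest to highest library (line), coloured by role. ACTC1 stands apart at 1213 FPKM, and the myosin heavy chains MYH3 and MYH8 are at 1.47 and 0.678 FPKM.

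Promoter windows are shown because the series title concerns CpG islands, and because several genes that fell hold motifs of muscle transcription factors. RefSeq windows of 300 bases (250 before and 50 after the start, GRCh38.p14) were given for 27 of the 40 genes. For the 7 genes with several windows the one with most CpG dinucleotides was taken. In the lines below, capitals mark E-boxes (CANNTG), matches to the MEF2 and CArG consensus, and TATAAA, on either strand. Runs of 10 capitals are MEF2 or CArG matches and runs of 6 are E-boxes or TATAAA. Mean log2 ratios to DMSO at 6 h were taken over the dCBP and IHK-44 libraries. Among the 29 genes with a mean of at least 1 CPM, that of CAV3 was lowest (-2.52) and that of MYOM1 highest (0.25). MYOM1 is a low gene, with a control mean of 1.43 CPM and 16 to 34 expected counts. KLHL41, XIRP1, MYH8 and ACTC1 were added after their values were seen.
CAV3: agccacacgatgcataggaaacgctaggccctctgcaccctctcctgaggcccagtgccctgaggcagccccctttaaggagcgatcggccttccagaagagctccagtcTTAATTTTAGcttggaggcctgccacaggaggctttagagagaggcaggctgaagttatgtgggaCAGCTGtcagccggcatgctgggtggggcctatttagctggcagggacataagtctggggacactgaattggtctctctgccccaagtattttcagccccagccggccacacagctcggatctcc
KLHL41: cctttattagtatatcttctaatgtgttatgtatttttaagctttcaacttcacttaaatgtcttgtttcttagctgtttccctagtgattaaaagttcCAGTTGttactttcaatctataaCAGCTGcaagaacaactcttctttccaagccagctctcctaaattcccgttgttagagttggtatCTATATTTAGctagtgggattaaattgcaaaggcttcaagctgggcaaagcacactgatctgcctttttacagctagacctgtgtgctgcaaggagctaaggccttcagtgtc
XIRP1: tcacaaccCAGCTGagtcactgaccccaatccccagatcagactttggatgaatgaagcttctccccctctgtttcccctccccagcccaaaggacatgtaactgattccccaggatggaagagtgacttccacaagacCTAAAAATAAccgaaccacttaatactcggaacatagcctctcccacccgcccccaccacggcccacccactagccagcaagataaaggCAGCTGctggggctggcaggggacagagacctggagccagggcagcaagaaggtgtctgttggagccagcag
MYH8: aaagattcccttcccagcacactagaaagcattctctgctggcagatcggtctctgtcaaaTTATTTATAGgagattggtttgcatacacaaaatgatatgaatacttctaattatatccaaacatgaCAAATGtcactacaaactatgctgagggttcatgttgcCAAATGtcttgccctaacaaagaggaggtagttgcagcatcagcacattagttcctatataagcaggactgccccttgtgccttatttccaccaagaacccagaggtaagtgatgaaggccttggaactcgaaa
ACTC1: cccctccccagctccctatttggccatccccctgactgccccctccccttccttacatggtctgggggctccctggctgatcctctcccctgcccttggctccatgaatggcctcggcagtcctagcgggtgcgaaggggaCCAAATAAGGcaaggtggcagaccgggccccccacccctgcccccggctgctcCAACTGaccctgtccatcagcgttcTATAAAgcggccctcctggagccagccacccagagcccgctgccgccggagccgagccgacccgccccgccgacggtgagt
MYOM1: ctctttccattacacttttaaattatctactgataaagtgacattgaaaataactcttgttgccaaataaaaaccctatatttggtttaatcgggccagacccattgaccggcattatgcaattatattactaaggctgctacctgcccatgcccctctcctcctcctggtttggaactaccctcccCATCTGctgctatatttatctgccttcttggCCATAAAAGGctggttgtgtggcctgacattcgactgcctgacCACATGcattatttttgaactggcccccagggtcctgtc

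The CAV3 window is at chr3:8733552-8733851 (plus strand), KLHL41 at chr2:169509452-169509751 (plus), XIRP1 at chr3:39192546-39192845 (minus), MYH8 at chr17:10421901-10422200 (minus), ACTC1 at chr15:34795500-34795799 (minus) and MYOM1 at chr18:3219919-3220218 (minus). The MEF2 match began 140 bases before the start site in CAV3, 63 in KLHL41, 111 in XIRP1 and 189 in MYH8, where it overlaps a TATAAA on the other strand. CAV3, KLHL41 and XIRP1 also hold the E-box CAGCTG. In ACTC1 and MYOM1 the 10-base match is a CArG box. A MEF2 match was found in 7 of 27 windows (25.9%: MYH8, MYOM3, TTN, CAV3, CASQ2, KLHL41 and XIRP1), against 1.92% of the windows of 15027 coding genes. CArG boxes were in 4 windows (14.8%) against 1.06%, CAGCTG in 9 (33.3%) against 17.4%, any E-box in 21 (77.8%) against 62.6%, and TATAAA in 5 (18.5%) against 8.94%. These matches describe letters in the window only, and no binding was measured here.

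CpG content differed among the genes. TPM2, which did not pass the test with any compound, has a window at chr9:35689876-35690175 (minus strand) with 30 CpG and none of the motifs above. Here capitals mark each CG.
TPM2: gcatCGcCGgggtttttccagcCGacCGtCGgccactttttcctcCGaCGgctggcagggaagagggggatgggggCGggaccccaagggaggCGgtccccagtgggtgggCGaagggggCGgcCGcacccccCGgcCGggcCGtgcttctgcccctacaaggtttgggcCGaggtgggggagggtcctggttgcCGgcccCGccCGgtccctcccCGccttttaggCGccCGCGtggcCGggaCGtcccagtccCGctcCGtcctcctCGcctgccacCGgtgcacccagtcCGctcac

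KLHL41 has 1 CpG in its window, MYH8 2, CHRNA1 3, XIRP1 4 and CAV3 7. The median over the 23 genes with a window and a mean of at least 1 CPM was 8 CpG, against 29 over 9988 coding genes. When coding genes were split into 4 classes by CpG number, 16 of those 23 lay in the class with fewest (0 to 21).

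Calcium handling and the caveola held the member with the largest called fall with dCBP, CAV3; with IHK-44 only XIRP1, described below, fell by more. CAV3, which encodes the muscle caveolin of the sarcolemma, fell to 0.321 times the DMSO level with dCBP (log2 change -1.64, SE 0.50, 95% interval -2.68 to -0.60, edgeR quasi-likelihood test, Benjamini-Hochberg adjusted p = 0.0277) and to 0.342 times with IHK-44 (-1.55, SE 0.50, -2.59 to -0.50, adjusted p = 0.043). Pairs of values here and below give 100 nM first and 1000 nM second. CAV3 was at 102 CPM at 2 h and 87.5 CPM at 6 h with DMSO and at 102 CPM at 2 h and 104 CPM at 6 h with NT. With dCBP it was at 61.9 and 61.6 CPM at 2 h and 19.3 and 13.3 CPM at 6 h, and with IHK-44 at 75.1 and 70.6 CPM at 2 h and 19.0 and 8.72 CPM at 6 h. All 8 of these treated libraries lay below all 4 controls, and the 6 h libraries lay lowest. With A485, CAV3 was at 76.5 and 59.6 CPM at 2 h and 57.0 and 27.3 CPM at 6 h, also below the controls in each library, but the change (log2 -0.93, 95% interval -1.97 to 0.10) did not pass (adjusted p = 0.306). With JQAD it was at 99.0 and 105 CPM at 2 h and 85.7 and 88.2 CPM at 6 h, within or beside the controls (log2 -0.01, 95% interval -1.06 to 1.05).

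RYR1, the calcium release channel, differed mainly in the 6 h libraries. DMSO gave 199 CPM at 2 h and 245 CPM at 6 h and NT 322 CPM at 2 h and 236 CPM at 6 h. With dCBP it was at 317 and 326 CPM at 2 h and 106 and 103 CPM at 6 h, and with IHK-44 at 200.3 and 241 CPM at 2 h and 79.2 and 69.2 CPM at 6 h. At 2 h, then, none of these 4 libraries was under the lowest control, and at 6 h all 4 were under it. A485 gave 301 and 295 CPM at 2 h and 241 and 141 CPM at 6 h and JQAD 245 and 221 CPM at 2 h and 319 and 205 CPM at 6 h. Over both times RYR1 did not pass against DMSO (log2 -0.40 with dCBP, adjusted p = 0.481, and -0.93 with IHK-44, adjusted p = 0.111). Its change with time is given below. ATP2A1, the calcium pump of fast muscle, was at 45.0 to 49.9 CPM in the controls and at 27.9 to 38.9 CPM in the 6 h dCBP and IHK-44 libraries, without passing (log2 -0.43 and -0.52). CASQ2, a calcium-binding protein of the reticulum, stayed between 5.53 and 9.12 CPM in all libraries.

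Among Z-disc and assembly genes, KLHL41 was the one that passed with both dCBP and IHK-44. It encodes a Kelch protein that stabilises nebulin during assembly of the thin filament. KLHL41 fell to 0.344 times DMSO with dCBP (log2 -1.54, SE 0.37, 95% interval -2.32 to -0.75, adjusted p = 0.0114) and to 0.355 times with IHK-44 (-1.50, SE 0.37, -2.28 to -0.71, adjusted p = 0.0164). DMSO gave 190.1 CPM at 2 h and 145 CPM at 6 h and NT 175 CPM at 2 h and 150.0 CPM at 6 h. With dCBP it was at 113 and 96.0 CPM at 2 h and 34.9 and 33.8 CPM at 6 h, and with IHK-44 at 114 and 105 CPM at 2 h and 33.8 and 35.3 CPM at 6 h. These 8 libraries lay below the controls, and at 6 h they spanned only 33.8 to 35.3 CPM over both compounds and doses. A485 gave 139.5 and 94.7 CPM at 2 h and 111 and 45.4 CPM at 6 h, which falls apart by dose. JQAD gave 172 and 171 CPM at 2 h and 138 and 150.3 CPM at 6 h, beside the controls.

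XIRP1, an actin-binding repeat protein of cell junctions and muscle repair, fell with IHK-44 (log2 -1.59, SE 0.52, 95% interval -2.69 to -0.49, adjusted p = 0.046). It is a low gene, at 2.82 CPM at 2 h and 2.05 CPM at 6 h with DMSO and 2.56 CPM at 2 h and 1.74 CPM at 6 h with NT. With IHK-44 it was at 1.58 and 1.78 CPM at 2 h and 0.179 and 0.361 CPM at 6 h, where the lower 6 h values rest on few counts. The call was lost with NT in place of DMSO (log2 -1.39), with a dose term, and in 4 of the 6 fits that left out 1 library, those without either DMSO library or either 6 h IHK-44 library. With dCBP it was at 1.40 and 2.07 CPM at 2 h and 0.708 and 0.811 CPM at 6 h, and the change did not pass (log2 -1.14, adjusted p = 0.111). A485 gave 1.68 and 1.62 CPM at 2 h and 0.887 and 0.187 CPM at 6 h and JQAD 2.17 and 2.35 CPM at 2 h and 2.88 and 2.20 CPM at 6 h, so the 1000 nM A485 library of 6 h lay between those of IHK-44. DES was at 439 CPM at 2 h and 392 CPM at 6 h with DMSO and 413 CPM at 2 h and 436 CPM at 6 h with NT. Treated with dCBP, cells gave 385 and 416 CPM at 2 h and 373 and 266 CPM at 6 h, and with IHK-44 413 and 394 CPM at 2 h and 269.7 and 282 CPM at 6 h. A485 gave 409.8 and 383 CPM at 2 h and 325 and 273 CPM at 6 h, and JQAD 428 and 426 CPM at 2 h and 391 and 465 CPM at 6 h. No compound passed for DES against DMSO (log2 -0.32 with dCBP and -0.42 with IHK-44), and the 100 nM dCBP library of 6 h stood apart from the 1000 nM one.

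Both called subunits of the acetylcholine receptor fell less steeply. CHRNA1 fell with dCBP (log2 -0.66, SE 0.14, 95% interval -0.96 to -0.35, adjusted p = 0.00715) and with IHK-44 (-0.52, SE 0.14, -0.83 to -0.22, adjusted p = 0.025). DMSO gave 593 CPM at 2 h and 578 CPM at 6 h and NT 548 CPM at 2 h and 568 CPM at 6 h. With dCBP it was at 486 and 442 CPM at 2 h and 332 and 358 CPM at 6 h, and with IHK-44 at 524 and 509.9 CPM at 2 h and 401 and 346 CPM at 6 h. All 8 lay below all 4 controls. A485 gave 552 and 499 CPM at 2 h and 553 and 448 CPM at 6 h and JQAD 572 and 587 CPM at 2 h and 543 and 549 CPM at 6 h, both overlapping the controls. CHRND, the delta subunit, fell with dCBP (log2 -0.42, SE 0.13, 95% interval -0.70 to -0.14, adjusted p = 0.032). It was at 153 CPM at 2 h and 133 CPM at 6 h with DMSO, 146 CPM at 2 h and 141 CPM at 6 h with NT, 126 and 139.9 CPM at 2 h and 106 and 93.3 CPM at 6 h with dCBP and 153 and 142 CPM at 2 h and 98.5 and 96.8 CPM at 6 h with IHK-44. A485 gave 143 and 141 CPM at 2 h and 114 and 95.7 CPM at 6 h and JQAD 155 and 157 CPM at 2 h and 138 and 140.3 CPM at 6 h, so at 6 h the libraries of A485, dCBP and IHK-44 were all under the lowest control and at 2 h most overlapped the controls. With IHK-44 CHRND did not pass (log2 -0.36, adjusted p = 0.07). CHRNG, the embryonic gamma subunit, was lower at 6 h than at 2 h in the controls too: 18.3 and 19.8 CPM at 2 h against 12.3 and 12.5 CPM at 6 h.

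On the thin filament, ACTC1 fell with dCBP (log2 -0.73, SE 0.22, 95% interval -1.19 to -0.27, adjusted p = 0.0259). It was at 1581 CPM at 2 h and 1390 CPM at 6 h with DMSO, 1438 CPM at 2 h and 1492 CPM at 6 h with NT and 1306 and 1345 CPM at 2 h and 737 and 615 CPM at 6 h with dCBP. IHK-44 gave 1372 and 1218 CPM at 2 h and 1021 and 695 CPM at 6 h and did not pass (log2 -0.61, 95% interval -1.07 to -0.15, adjusted p = 0.062). A485 gave 1393 and 1271 CPM at 2 h and 1022 and 858 CPM at 6 h and JQAD 1524 and 1520 CPM at 2 h and 1392 and 1538 CPM at 6 h. The treated libraries other than JQAD were thus lowest at 6 h, and JQAD overlapped the controls. TPM3, a slow-muscle and non-muscle tropomyosin, fell by a small amount with dCBP (log2 -0.22, SE 0.07, adjusted p = 0.032). Its levels were 264 CPM at 2 h and 272 CPM at 6 h with DMSO, 252 CPM at 2 h and 271 CPM at 6 h with NT, 248 and 229.7 CPM at 2 h and 254 and 263 CPM at 6 h with dCBP and 254 and 251 CPM at 2 h and 249 and 254 CPM at 6 h with IHK-44. A485 gave 266 and 253 CPM at 2 h and 251 and 248 CPM at 6 h and JQAD 265 and 268 CPM at 2 h and 263 and 279 CPM at 6 h. In CPM the dCBP and control libraries of TPM3 overlap, and with scaling by library size alone the change was -0.11 and no longer passed, as also with NT as control (-0.17). The other 10 thin filament genes tested did not pass against DMSO with any compound.

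On the thick filament and M-band, MYH8, the perinatal myosin heavy chain, fell with IHK-44 (log2 -1.16, SE 0.30, 95% interval -1.80 to -0.53, adjusted p = 0.0196). It was at 4.98 CPM at 2 h and 3.57 CPM at 6 h with DMSO and 3.51 CPM at 2 h and 4.63 CPM at 6 h with NT. With IHK-44 it was at 2.31 and 2.82 CPM at 2 h and 2.08 and 1.08 CPM at 6 h, below the controls in all 4 libraries. The dCBP libraries gave 3.90 and 3.84 CPM at 2 h and 2.05 and 2.06 CPM at 6 h, those of A485 4.02 and 4.66 CPM at 2 h and 3.55 and 2.43 CPM at 6 h and those of JQAD 3.56 and 2.93 CPM at 2 h and 3.03 and 3.63 CPM at 6 h. MYH8 is low, and its JQAD libraries run from under the controls into their range. MYL6B, the most abundant gene of this group per length, was at 148 CPM at 2 h and 146 CPM at 6 h with DMSO and 149 CPM at 2 h and 158 CPM at 6 h with NT. The dCBP libraries gave 141 and 163 CPM at 2 h and 179.6 and 139.8 CPM at 6 h and those of IHK-44 164 and 156 CPM at 2 h and 136 and 136 CPM at 6 h. A485 gave 147 and 133 CPM at 2 h and 124 and 123 CPM at 6 h, and JQAD 167 and 149 CPM at 2 h and 136 and 156 CPM at 6 h. These values overlap across all treatments, and the interval of the dCBP change ran from -0.28 to 0.23. The lowest values were those of A485 at 6 h. With DMSO and NT together as controls the A485 change was log2 -0.26 (95% interval -0.45 to -0.07) and did not pass (edgeR, adjusted p = 0.0854). ENO3, the muscle enolase and the one gene of energy metabolism above 1 CPM in the controls, was at 95.6 CPM at 2 h and 94.8 CPM at 6 h with DMSO and 94.8 CPM at 2 h and 103 CPM at 6 h with NT. The dCBP libraries gave 93.0 and 97.9 CPM at 2 h and 73.5 and 65.5 CPM at 6 h and those of IHK-44 96.2 and 98.3 CPM at 2 h and 80.1 and 73.0 CPM at 6 h. A485 gave 98.7 and 84.8 CPM at 2 h and 68.4 and 71.2 CPM at 6 h and JQAD 103 and 96.9 CPM at 2 h and 88.2 and 108 CPM at 6 h. The 6 h libraries of all compounds but JQAD were thus below the controls, without passing against DMSO (log2 -0.33 with dCBP).

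**Figure D2:**
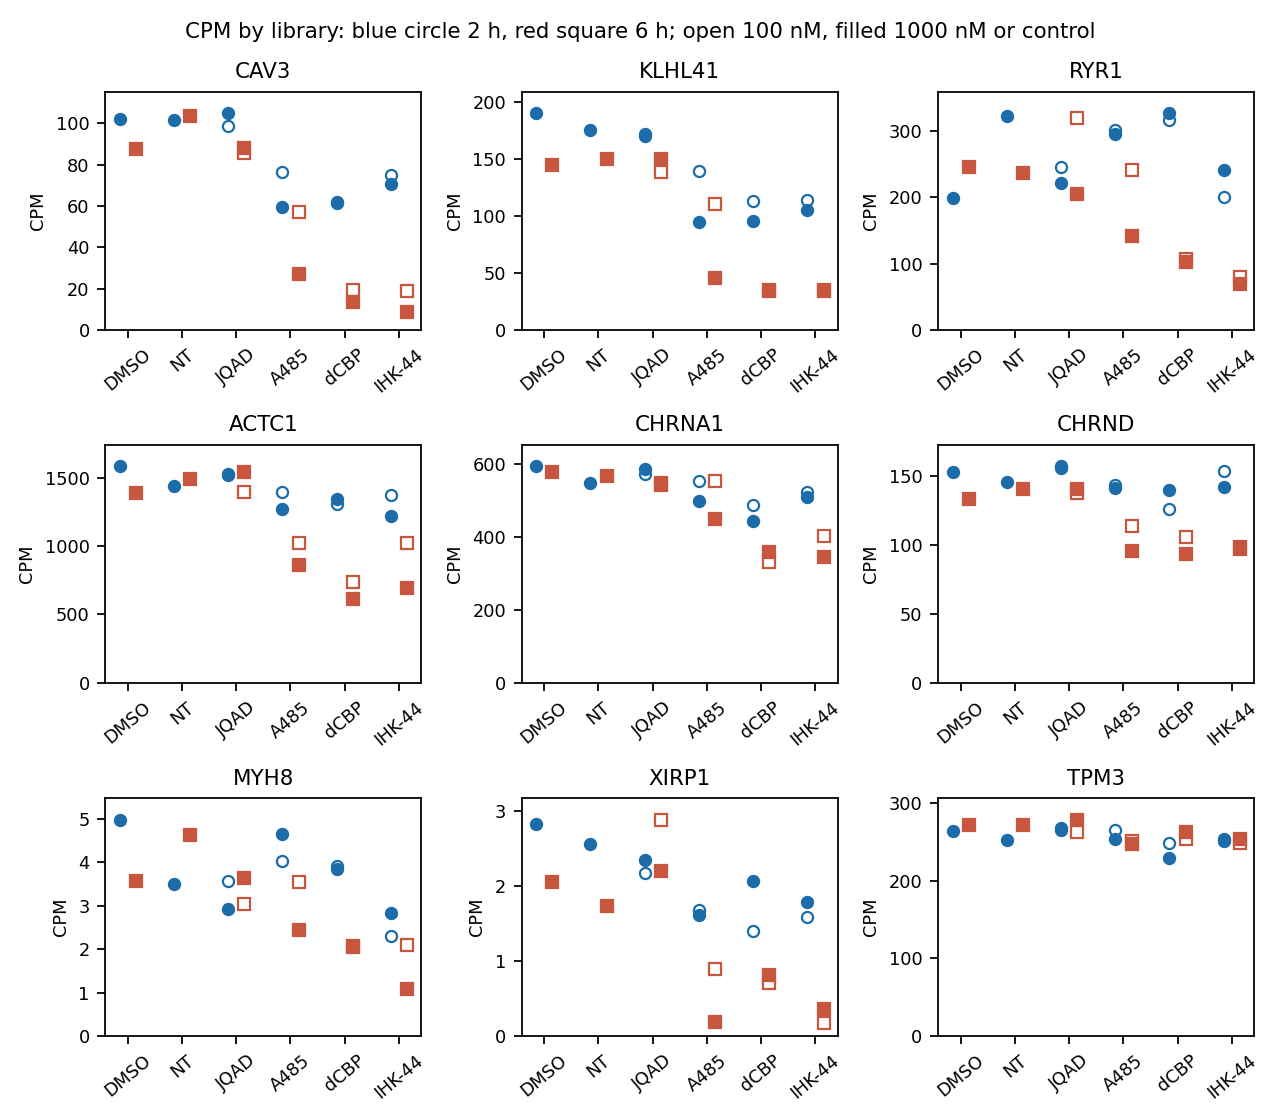
CPM (linear axis from 0) of 9 genes in each of the 20 libraries, by compound; blue circles are 2 h, red squares 6 h, open symbols 100 nM and filled symbols 1000 nM or controls. For CAV3 and KLHL41 the 6 h dCBP and IHK-44 squares lie at 8.72 to 19.3 CPM and at 33.8 to 35.3 CPM, and TPM3 stays between 229.7 and 279 CPM in all libraries.

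Counted over the list, 38 of the 40 genes passed the filter on low counts (MYOM3 and TNNC2 did not). With dCBP 6 of 38 fell (15.8%) and 0 rose, against 11.8% of 13260 genes that fell and 11.8% that rose. With IHK-44 5 of 38 fell (13.2%) and 0 rose, against 9.21% that fell and 7.74% that rose. In this fit, against DMSO alone, the share that fell was therefore near that of all genes. With both controls, given below, it was further from it. The median log2 change of the 38 was -0.31 with dCBP and -0.23 with IHK-44, against 0.05 and 0.04 over all genes tested. By role, the dCBP calls were 2 of 12 thin filament genes, 1 of 8 Z-disc and assembly genes, 2 of 3 receptor subunits, 1 of 4 genes of calcium handling and the caveola, and 0 of 9 thick filament genes. The IHK-44 calls were 1 of 9 thick filament genes, 2 of 8 Z-disc and assembly genes, 1 of 3 receptor subunits and 1 of 4 genes of calcium handling and the caveola.

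With A485, 0 of 38 passed by edgeR, DESeq2 or limma, where 0.271% of all genes passed by edgeR; 12 members had an unadjusted p under 0.05, and the median was -0.24. With JQAD 0 of 38 passed (0% of all genes; 1 member at an unadjusted p under 0.05 by edgeR, and 0 calls by DESeq2 or limma), with a median of 0.00. NT against DMSO gave 0 of 38 (0% of all genes; 0 members at an unadjusted p under 0.05, and 0 calls by DESeq2 or limma). With DMSO and NT together as controls, 35 members were tested. Then 15 fell with dCBP (42.9%, against 19.6% of 13001 genes), 15 with IHK-44 (42.9%, against 18.3%) and 2 with A485 (5.71%, against 2.84%). The 2 with A485 were MYL4 and TNNI1. The 15 with IHK-44 added RYR1 (log2 -1.05, adjusted p = 0.0205), ACTC1, ATP2A1, CHRND, DES, MYBPH, MYL4, TNNI1, TPM1 and TPM3 to the 5 named above. The 15 with dCBP added ATP2A1, CASQ2, CHRNG, DES, ENO3, MYBPH, MYH8, MYL4 and TNNI1 to those called with dCBP against DMSO.

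The calls against DMSO alone depended on single libraries, as did those over all genes. Without the 6 h DMSO library 0 members passed with dCBP and 0 with IHK-44, where 0.873% and 0.925% of all genes passed. Without the 2 h DMSO library 4 and 2 did (11.8% and 8.04% of all genes). For dCBP, 3 passed without its 1000 nM library of 6 h (16.1%) and 4 without the 100 nM one (16.8%). For IHK-44, 0 passed without its 1000 nM library of 6 h (5.22%), 1 without the 100 nM one (6.89%) and 11 without the 100 nM library of 2 h (21%). When either 6 h library of the compound was left out, the calls of CAV3 (dCBP and IHK-44), ACTC1 (dCBP), KLHL41 and CHRNA1 (IHK-44) were lost, like that of XIRP1. CHRND with dCBP and MYH8 with IHK-44 lost theirs without the 1000 nM one. All 11 changes kept their direction in each of these fits. In these bulk libraries less RNA per cell cannot be told apart from fewer cells that carry it. The summed level of the 7 lineage markers, DES among them, moved with these genes, from 1626 to 1789 CPM in the DMSO and NT libraries to 644 to 1370 CPM with dCBP and 566 to 1356 CPM with IHK-44. MYOG was at 34.2 CPM in the 1000 nM dCBP library of 6 h and at 29.8 CPM in that of IHK-44. The sum of 5 smooth muscle markers moved the other way, from 73.5 to 79.8 CPM in the controls to as much as 170.5 CPM with dCBP, of which SMTN reached 163 CPM. The sum of 5 fibroblast markers went from 37.06 to 44.03 CPM in the controls to between 18.8 and 39.0 CPM with dCBP and between 17.4 and 35.1 CPM with IHK-44. That of 8 cardiac markers went from 46.4 to 59.1 CPM to between 37.8 and 48.1 CPM and between 39.2 and 46.6 CPM. The part of these in the results was not tested.

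Single libraries at 6 h show the size of the response by dose. Of 29 members with a mean of at least 1 CPM, 4 were at least 2-fold below the DMSO library on the log2(CPM + 1) scale with 1000 nM dCBP (ACTC1, CAV3, KLHL41 and RYR1), where 6.19% of 12174 genes were, and 3 with 100 nM (CAV3, KLHL41 and RYR1; 6.97%). With IHK-44, 6 were at 1000 nM (CAV3, KLHL41, MYBPH, MYH8, RYR1 and XIRP1; 6.78%) and 4 at 100 nM (CAV3, KLHL41, RYR1 and XIRP1; 5.97%). With 1000 nM A485 4 were (CAV3, KLHL41, MYBPH and XIRP1; 3.87%) and with 100 nM 0 (0.312%). JQAD gave 0 at 1000 nM (0.0575%) and 0 at 100 nM (0.0246%), and NT gave 0 (0.0411%). At 2 h no member was 2-fold below DMSO on the same log2(CPM + 1) scale in any library. The median log2 ratio of the 29 at 6 h and 1000 nM was -0.46 (dCBP), -0.35 (IHK-44), -0.37 (A485) and 0.05 (JQAD). Over all 12174 genes the medians were 0.21, 0.22, 0.14 and -0.01, so the ratios of the first 3 would be lower by these amounts if the median gene were set to 0. Set so, 5 members were at least 2-fold lower with 1000 nM dCBP, 7 in the IHK-44 library and 4 in that of A485. The share of all genes was not counted on this scale, so these counts cannot be set beside the shares above.

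**Figure D3:**
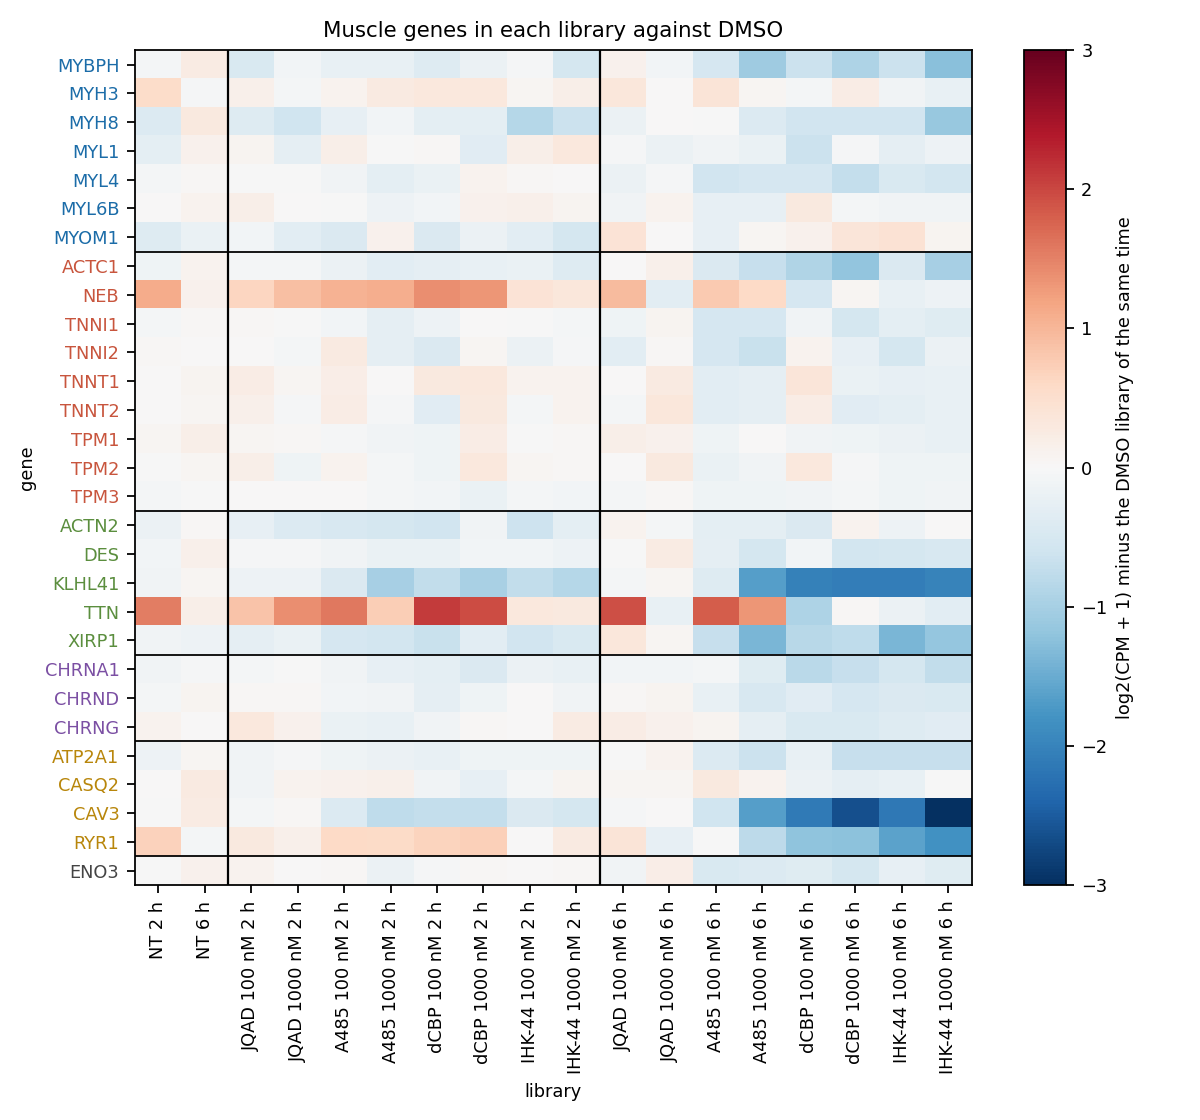
log2(CPM + 1) of 29 genes in each library minus the DMSO library of the same time, grouped by role (rows) and by control, 2 h and 6 h (columns). CAV3, KLHL41 and RYR1 are dark blue in the 6 h dCBP and IHK-44 columns, and TTN and NEB are red in many 2 h columns, the NT library included.

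Already at 2 h KLHL41 stood at 50.5% of the DMSO level in CPM with 1000 nM dCBP, 55.5% with IHK-44 at that dose and 49.8% with A485, and CAV3 at 60.3%, 69.1% and 58.2%. By 6 h KLHL41 was at 23.4%, 24.4% and 31.4%, and CAV3 at 15.2%, 9.96% and 31.2%. The difference between times was tested as an interaction against DMSO and NT together. A negative term, called a stronger fall at 6 h below, means a lower level against the controls at 6 h than at 2 h. It need not include a fall at 2 h. With 100 and 1000 nM dCBP at 2 h, RYR1 was at 159.5% and 164.2% of DMSO and ENO3 at 97.3% and 102.4%. With dCBP 7 of 38 members passed, all with a negative term, where 6.4% of all genes did so: ACTC1, CAV3, CHRNA1, ENO3, KLHL41, MYL4 and RYR1. With IHK-44 9 passed in the same direction (7.76% of all genes): ATP2A1, CAV3, CHRNA1, CHRND, ENO3, KLHL41, MYL4, RYR1 and XIRP1. The largest terms were those of CAV3 (log2 -1.93, SE 0.43, adjusted p = 0.0137 with dCBP and -2.42, SE 0.43, adjusted p = 0.00311 with IHK-44). RYR1 followed with dCBP (-1.61, SE 0.34, adjusted p = 0.01). RYR1 with IHK-44 gave -1.58 (SE 0.34, adjusted p = 0.00847). The terms of KLHL41 were -1.40 (SE 0.39, adjusted p = 0.0338) and -1.48 (SE 0.39, adjusted p = 0.0236). With A485 0 members passed by edgeR, DESeq2 or limma (8 at an unadjusted p under 0.05), where 0.00754% of all genes passed by edgeR. With JQAD 0 passed by all 3 (0 at an unadjusted p under 0.05). The median time term of the 38 was -0.41 with A485, -0.39 with dCBP, -0.52 with IHK-44 and 0.005 with JQAD. In simulated data, with changes placed in the dCBP libraries and a fixed spread for all genes, this test recovered 36.5% of 200 changes of log2 1 at 6 h. That spread was set and not taken from this fit, so the rate cannot be carried over to A485. A lack of calls with A485, whose median term was near that of dCBP, does not show that its response was the same at both times. Leaving out 1 control library at a time left 1 to 3 calls with dCBP and 2 to 3 with IHK-44. The share of all genes with a stronger fall at 6 h dropped too, to 1.86% to 2.8% with dCBP and 3.39% to 4.07% with IHK-44.

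Compounds were compared at matched dose and time over the 16 treated libraries, with p-values adjusted over 12895 genes and 6 pairs, and 34 members passed the filter. JQAD and dCBP differed in 8 members, all higher with JQAD (10.4% of all genes were): ACTC1, CAV3, CHRNA1, CHRND, CHRNG, ENO3, KLHL41 and TPM3. JQAD and IHK-44 differed in 10, again all higher with JQAD (10.9%): ACTC1, ATP2A1, CAV3, CHRNA1, CHRND, DES, KLHL41, RYR1, TPM3 and XIRP1. CAV3 was higher with JQAD than with dCBP by a log2 value of 1.76 (95% interval 0.88 to 2.63, adjusted p = 0.0212) and than with IHK-44 by 1.70 (0.82 to 2.58, adjusted p = 0.0244). KLHL41 was higher by 1.53 (0.84 to 2.22, adjusted p = 0.0142) and 1.49 (0.80 to 2.18, adjusted p = 0.0158). JQAD exceeded A485 in 3 members (2.19% of all genes were higher): CHRND by 0.35, ENO3 by 0.39 and TNNI1, slow troponin I, by 0.41.

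A485 differed from dCBP in 2 members (2.64% of all genes differed), CASQ2 (log2 -0.47 with dCBP minus A485, adjusted p = 0.0406) and CHRNA1 (-0.40, adjusted p = 0.048). It differed from IHK-44 in 1 (2.6%), MYH8 (-0.88 with IHK-44 minus A485, adjusted p = 0.0458). That last count was 0 in all 8 fits that left out 1 library and without the low-count filter, and with the offset for gene length described below the 1 member was NEB. The count for dCBP was 0 in 6 of its 8 such fits. For KLHL41 the difference of dCBP from A485 was -0.66 with an interval from -1.34 to 0.03, and for CAV3 -0.74 from -1.60 to 0.12, so neither passed. No member differed between IHK-44 and dCBP by edgeR, DESeq2 or limma (0.481% of all genes did by edgeR; 1 member at an unadjusted p under 0.05). The intervals of that difference were -0.80 to 0.91 for CAV3, -0.63 to 0.71 for KLHL41, -0.24 to 0.48 for ACTC1 and -0.12 to 0.37 for CHRNA1, which do not exclude differences of these sizes.

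Dose within a compound gave 1 call among 35 members tested. KLHL41 was lower at 1000 nM than at 100 nM of A485 (log2 -0.98, SE 0.16, 95% interval -1.34 to -0.63, adjusted p = 0.0203), where 0.853% of 13137 genes were lower. This rests on 1 pair of libraries at each time, with a spread shared over compounds and 4 residual degrees of freedom. The pairs were 139.5 and 94.7 CPM at 2 h and 111 and 45.4 CPM at 6 h, so the difference was wider at 6 h. Leaving out libraries was not tried for dose. CAV3 had a dose difference of -0.77 with A485 that did not pass (interval -1.28 to -0.27, adjusted p = 0.188). By edgeR, DESeq2 and limma 0 members passed for dCBP, IHK-44 and JQAD (1, 3 and 0 at an unadjusted p under 0.05 by edgeR). For KLHL41 the dose difference was -0.17 with dCBP (interval -0.53 to 0.19) and -0.06 with IHK-44 (-0.42 to 0.30).

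TTN and NEB, which encode the giant proteins titin (from Z-disc to M-band) and nebulin (along the thin filament), varied widely between the control libraries. TTN was at 907.6 CPM in the DMSO library of 2 h and at 2618 CPM in the NT library of 2 h. At 6 h these controls gave 1242 and 1401 CPM. Over all libraries TTN ran from 654 CPM (100 nM dCBP, 6 h) to 4780 CPM (100 nM JQAD, 6 h), and NEB from 349 to 954 CPM in the same 2 libraries. Neither gene passed against DMSO with any compound (TTN log2 0.96 with dCBP, interval -0.39 to 2.31). The class of genes with the longest transcripts moved with them in some libraries only. The median log2 of the 24 genes over 16 kb, TTN and NEB among them, was -0.42 in the DMSO library of 2 h and 0.09 in the NT library of 2 h. It was highest in the A485 libraries of 6 h (0.40 at 1000 nM and 0.32 at 100 nM) and the 100 nM JQAD library of 6 h (0.29). In the 100 nM dCBP library of 6 h, where TTN was lowest, the median was -0.11, above that of DMSO at 2 h. In the 1000 nM IHK-44 library of 6 h it was 0.10, with TTN at 1001 CPM. The effective length deposited for TTN changed as well, from 49.1 kb (DMSO, 2 h) to 73.6 kb (1000 nM dCBP, 2 h). RYR1, with an effective length of 14.6 kb, was also higher in the NT than in the DMSO library of 2 h (322 against 199 CPM). With an offset for gene length, chosen after seeing the data, 9 members fell with dCBP and 12 with IHK-44 against DMSO, where 19.3% and 17.2% of all genes fell. The part of transcript length in single results was not tested.

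**Figure D4:**
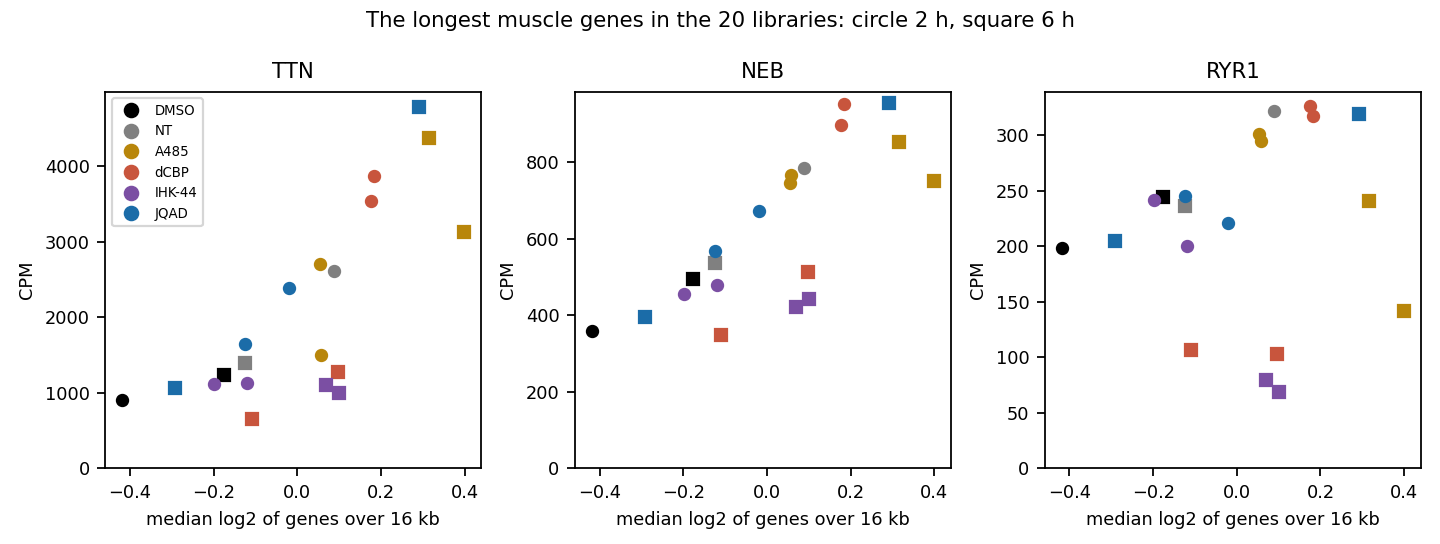
CPM (linear axis) of TTN, NEB and RYR1 in the 20 libraries against the median log2 level of the 24 genes over 16 kb in the same library; colours mark the compound, circles 2 h and squares 6 h. DMSO at 2 h lies at the left with 907.6 CPM of TTN, and the 6 h dCBP and IHK-44 squares of RYR1 lie at 69.2 to 106 CPM, below all other libraries.

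CpG content and response were set side by side for the 23 genes with a window and a mean of at least 1 CPM. In the 1000 nM libraries of 6 h, all members at least 2-fold below DMSO that have a window (4 for dCBP, 6 for IHK-44 and 4 for A485) came from the 16 in the class with fewest CpG, and 0 from the other 7. The median log2 ratio of those 16 was -0.55 with dCBP and -0.60 with IHK-44, while over all 2518 genes of that class it was 0.23 and 0.26. In that class 8.46% of genes were at least 2-fold lower with dCBP and 8.78% with IHK-44, against 6.59% and 7.71% in the class with most CpG. The 2 classes between them had lower shares than either, 3.62% and 5.64% with dCBP and 3.80% and 6.16% with IHK-44. Pearson's r of CpG number with the log2 ratio across the 23 genes was 0.24 (dCBP), 0.29 (IHK-44), 0.30 (JQAD, with 0 members 2-fold lower) and 0.07 (A485, with 4), so it did not follow the number of members that were lower. Across 9988 genes it lay between -0.02 and 0.03. These genes share their libraries, so the values are descriptive. Of the 8 members that passed against DMSO, all have a window, with 1 to 22 CpG (median 5.5), and 4 hold a MEF2 match (CAV3, KLHL41, MYH8 and XIRP1). Among the 19 other members with a window 3 hold one, and the median is 11 CpG. These 19 include ACTA1, CKM and MYOM3, which were under 1 CPM in the controls and could hardly be called. MYOM3, which holds a MEF2 match, did not pass the low-count filter.

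**Figure D5:**
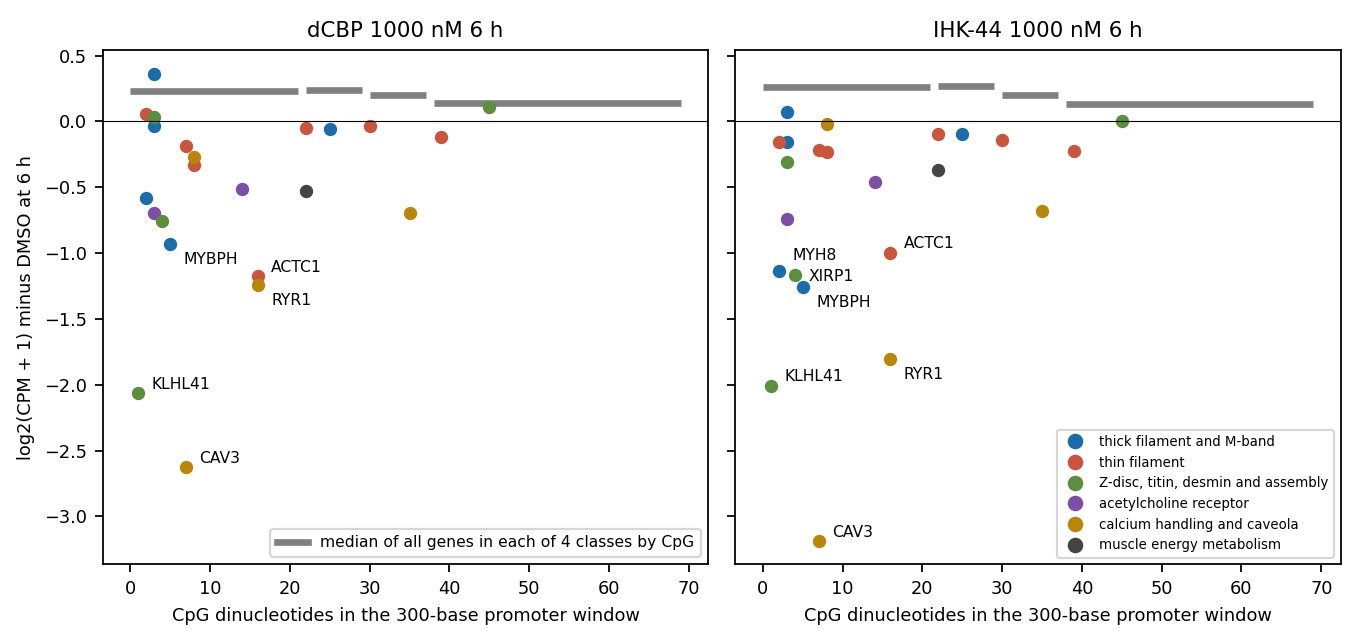
log2(CPM + 1) minus DMSO at 6 h with 1000 nM dCBP and IHK-44 for 23 genes (points, coloured by role) against the number of CpG in the 300-base window; grey bars are the medians of all genes in each of the 4 classes by CpG. KLHL41 (1 CpG) and CAV3 (7 CpG) lie lowest, and genes with more than 21 CpG lie closer to 0 than these.

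Other muscle genes were counted from a list of 78 further genes of the sarcomere, membrane and fusion, calcium handling and energy metabolism, of which 55 passed the filter. With dCBP 14 of 55 fell (25.5%) and 2 rose, where 11.8% of all genes fell and 11.8% rose. With IHK-44 10 fell (18.2%) and 0 rose, where 9.21% of all genes fell and 7.74% rose. With A485 and JQAD 0 passed by edgeR (9 and 0 at an unadjusted p under 0.05). The strongest falls with dCBP were those of MYMX, the micropeptide that drives myoblast fusion (log2 -2.31, SE 0.54, adjusted p = 0.00989), and SYNPO2, an actin-binding Z-disc protein (-1.72, SE 0.46, adjusted p = 0.0183). MYMX was at 24.6 and 27.1 CPM with DMSO at 2 h and 6 h, and at 2.12 and 1.92 CPM in the 6 h dCBP libraries. With IHK-44 they were MYMX (-1.69, SE 0.53, adjusted p = 0.0377) and KLHL31, a Kelch protein of muscle (-1.65, SE 0.31, adjusted p = 0.00375). One of the genes that rose with dCBP was SYNM, an intermediate filament protein (0.50, SE 0.13, adjusted p = 0.0162). By list, and to be read against the same 11.8%, 7 of 19 sarcomere genes fell with dCBP and 2 rose, and 5 of 20 membrane, receptor and fusion genes fell, CHRNB1, the beta subunit of the receptor, among them (log2 -0.40).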

How the data were processed

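The genes and lists were chosen with earlier results of these data known. The expected counts, as deposited by the authors, are estimated reads per gene over 18980 coding rows, with 88.49% of values whole. The TPM and FPKM columns were deposited by the authors, scaled over all genes they quantified. The deposited CPM column equals expected counts scaled to 1 total over the coding rows. By TPM, coding rows made up 39.31% to 44.49% of the total in DMSO and NT libraries. Every dCBP or IHK-44 library had a smaller share, between 27.91% and 35.43%. The share spanned 42.99% to 53.92% in A485 libraries and 37.91% to 45.51% in JQAD libraries. CPM and the tests compare genes within the coding rows only, so shifts of this share are not seen in them. Its part in the results was not tested. The deposited effective length (another unit, in bases) describes each gene in each library. The submitters' processing notes name STAR 2.5.3a, RSEM 1.3.3 and hg38; whether counting used strand is not given in the sources used here, and paralogs (actins, myosins, tropomyosins, troponins) could share reads.

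After rounding, expected counts went into edgeR 4.0.16 in R 4.3.3 (quasi-likelihood test, TMM, filterByExpr, Benjamini-Hochberg adjusted p under 0.05 over all genes). The fit against DMSO held 20 libraries with a level for DMSO, NT and each compound and a time term (13260 genes, 13 residual degrees of freedom), so the spread contains dose and time differences within a compound. Compounds were compared in 16 treated libraries with each dose and time as a block, dose within blocks of compound by time, and time dependence as an interaction against DMSO and NT together. The scripts were tested on simulated data. Ratios of single libraries used log2(CPM + 1) for genes with a mean of at least 1 CPM, which understates the change of low genes. Depth (13466631 to 16799327 counts) limits precision for genes near 1 CPM.

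Library values are printed for genes that passed against DMSO with any compound, for the gene of each role with the highest control FPKM, and for the 3 genes with the largest mean ratio at 6 h with dCBP and IHK-44. The promoters of CAV3 and MYOM1 followed from that ratio; the others, and the list of genes with named values outside this rule, were chosen after their values were seen. Alternatives were DESeq2 1.42.0, limma 3.58.1 on log2(CPM + 1) and log2(CPM + 0.1), scaling, filter, control group, a dose term and leaving out libraries. Protein sequences were not used here. One gene of the list of other muscle genes enters the counts, but its own values are not reported here.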

Additional observations from a re-analysis of the deposited data

Results flagged for a closer look

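Several differences between groups were found by a test of the difference itself, over members of the list. Between compounds at matched dose and time, 8 members differed between JQAD and dCBP and 10 between JQAD and IHK-44, all higher with JQAD. JQAD exceeded A485 in 3 members. dCBP and A485 differed in 2 members (CASQ2 and CHRNA1), and IHK-44 and A485 in 1 (MYH8), which was lost when any 1 library was left out. Between times, the response to dCBP differed in 7 members and that to IHK-44 in 9, against DMSO and NT together. Each of these members was lower relative to the controls at 6 h than at 2 h. Each condition had 1 library, so single libraries were not compared with replicates.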

How the results depend on the processing

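With DMSO and NT together as controls, 15 members fell in the dCBP comparison, 15 for IHK-44 and 2 for A485, in place of 6, 5 and 0 against DMSO; with NT in place of DMSO the counts were 6, 4 and 0. For IHK-44, DESeq2 gave 10 and the offset for gene length, chosen after seeing the data, 12; with that offset and both controls it gave 23. These were 26.3%, 31.6% and 65.7% of the members tested, where 12.7%, 17.2% and 29.9% of all genes fell. In the main fit against DMSO the shares were 13.2% of members and 9.21% of all genes. Leaving out 1 library gave 0 to 6 members with dCBP, 0 to 11 with IHK-44, and 0 in each fit with A485 and JQAD. With both controls these ranges, also chosen after seeing the data, were 6 to 16, 4 to 16 and, for A485, 0 to 4. The 11 changes called against DMSO kept their direction in the fits listed under processing; the direction of changes between compounds, doses and times was not followed. RYR1, which was not called, ran from -0.92 to 0.28 with dCBP when 1 library was left out (0.28 without the DMSO library of 6 h).

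Between compounds, leaving out the filter gave 1 member for dCBP against A485, 0 for IHK-44 against A485 and 1 for JQAD against A485. Over all genes 1.81% and 1.7% differed in the first 2 of these, and 1.52% were higher with JQAD in the last. DESeq2 gave 8 for JQAD against A485, and limma on log2(CPM + 1) gave 5 for JQAD against dCBP and 6 for JQAD against IHK-44. Over all genes 4.92%, 8.2% and 8.41% were higher with JQAD in these fits. The length offset gave 5, 14 and 19 for JQAD against A485, dCBP and IHK-44. With it 4.51%, 18.8% and 20% of all genes were higher with JQAD, against 2.19%, 10.4% and 10.9% without it. Leaving out 1 library gave 0 to 2 for dCBP against A485 and 0 for IHK-44 against A485. It gave 0 to 2 for IHK-44 against dCBP. The shares of all genes that differed ran from 1.01% to 4.78%, 0.825% to 2.55% and 0.1% to 0.813%. For JQAD against A485, dCBP and IHK-44 the counts were 0 to 10, 2 to 11 and 0 to 11. Genes higher with JQAD made up 0.423% to 4.06%, 3.69% to 12.6% and 4.07% to 12.8% of all genes. For dose with A485, DESeq2 gave 2, where 1.65% of all genes were lower, against 0.853% by edgeR. For time dependence the ranges were 1 to 3 with dCBP, 2 to 3 with IHK-44 and 0 with A485 and JQAD. In these fits 1.86% to 2.8% (dCBP) and 3.39% to 4.07% (IHK-44) of all genes fell more at 6 h, against 6.4% and 7.76%. Of the members at least 2-fold lower at 6 h and 1000 nM, A485 gave 2 with TPM and 8 at 1.5-fold. The dCBP library gave 4 with TPM and 9 at 1.5-fold, and that of IHK-44 gave 9 with either. Shares of all genes with TPM or at 1.5-fold were not counted here. The cause of these shifts was not tested. The labels give no replicate numbers, so no fit used them as a block; comparisons between compounds were matched on dose and time. Depth limits the 10 genes under 1 CPM.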
